A study of Mus musculus with 8 samples.

Results

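Interferons reach the nucleus through a short chain of proteins, and the 9 genes described here encode most of it. They are the chains of the type I interferon receptor (Ifnar1 and Ifnar2), the chains of the interferon gamma receptor (Ifngr1 and Ifngr2), the receptor-bound kinases Jak1, Jak2 and Tyk2, and the ISGF3 subunits Stat2 and Irf9. They were chosen by name, as the rows whose identifier is one of these symbols, and all 9 were found among 22050 genes with an mRNA model. Messenger RNA was measured in haematopoietic stem cells (HSCs), the rare cells that renew the blood, of C57BL/6 mice, an inbred laboratory strain. No allele, transgene or treatment is named for either age. There were 4 libraries of newborn mice on postnatal day 5 (P5) and 4 of mice aged 4 weeks, each made from 100 bone marrow cells sorted as carrying CD150 and EPCR and lacking CD48 and lineage markers. Separate animals are not named as the source of each library, so the spread behind the p-values is that between samples and may be technical.

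In the type I pathway, interferon alpha or beta joins IFNAR1 and IFNAR2, the bound kinases TYK2 and JAK1 phosphorylate STAT proteins, and STAT2 with IRF9 takes part in the complex ISGF3. ISGF3 binds a DNA element, the ISRE, in front of antiviral genes. Interferon gamma instead uses IFNGR1 and IFNGR2 with JAK1 and JAK2, and leads to STAT binding at another DNA element, GAS. In HSCs, type I interferon is known to push quiescent cells into division. JAK2 also serves the thrombopoietin receptor, on which HSCs depend.

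The ISGF3 subunit Stat2 was the only one of the 9 genes to pass the test between the ages, and the receptors and kinases showed no called difference. Stat2 RNA was lower at P5. The upstream sequence of Stat2 is shown because it holds the ISRE core letters, and that of Ifnar2 because it holds the GAS letters beside exon RNA with no called difference. Both are the 250 bases before the RefSeq start on GRCm38.p6, plus strand, 5′ to 3′, with the matched letters in capitals. Stat2 is at chr10:128270248-128270497 and Ifnar2 at chr16:91372533-91372782.
Stat2: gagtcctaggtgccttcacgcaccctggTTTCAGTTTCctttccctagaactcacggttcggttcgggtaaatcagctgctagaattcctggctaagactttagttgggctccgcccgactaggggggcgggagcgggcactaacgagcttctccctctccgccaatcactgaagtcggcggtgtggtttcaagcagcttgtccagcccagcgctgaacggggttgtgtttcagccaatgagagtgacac
Ifnar2: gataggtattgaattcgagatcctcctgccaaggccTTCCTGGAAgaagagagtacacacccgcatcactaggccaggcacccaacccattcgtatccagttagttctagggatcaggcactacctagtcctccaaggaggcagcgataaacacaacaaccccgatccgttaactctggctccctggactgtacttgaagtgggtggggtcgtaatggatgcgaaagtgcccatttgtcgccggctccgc

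The motifs searched were GAAA, any 2 bases and GAAA again for the ISRE core and TTCNNNGAA for GAS, each on both strands, in windows of 300 bases reaching 50 bases past the start. All 9 genes had a window, Irf9 a pair of them. The ISRE core was found in 1 gene, Stat2, on the minus strand 222 to 213 bases before the start. It occurred in 3.44% of 32851 promoter windows. The GAS letters were found in 2 genes, Ifnar2 (214 to 206 bases before the start) and Ifnar1, and in 8.3% of all windows. The Ifnar1 letters span the start used for its promoter window, which lies inside the RefSeq gene span given below, past its first base. The match in Ifnar1 is therefore not wholly within the 250 upstream bases, where 7.02% of windows hold the letters. A match is a description of letters and not of a bound site.

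The libraries held 5775130 to 7470777 exon reads each, and every one of the 9 genes had at least 152 exon reads in every library. Values below are exon reads in CPM, scaled to each library's TMM-adjusted total, unless a level per length is named. At least 98.6% of the exon reads of each gene mapped uniquely. P5 replicate 1 had the lowest share of intron reads, 60.1% of gene reads against 66.8% to 68.7% in the others. Y-linked genes had at most 2 reads in P5 replicates 1 and 3 and at least 1532 in each of the other libraries. Of the sort gate, Slamf1, Procr and Cd48 were not called between the ages. Slamf1 (CD150) had 33.8 ± 4.69 CPM at P5 and 36.6 ± 4.4 at 4 weeks, Procr (EPCR) 55.04 ± 8.0 and 57.1 ± 8.03, and Cd48, absent from the gated surface, 4.98 ± 3.57 and 5.10 ± 2.66 (SD, n = 4 each). Of 10 HSC gate and identity genes, edgeR called 3 higher and 1 lower at P5, beside 7.99% and 8.55% of all genes tested. The lower was Ly6a, at 29.6 ± 4.00 and 85.9 ± 17.8 CPM (SD, n = 4 each, edgeR adjusted p = 1.49e-05). Kit had 1012 ± 46.6 and 1001 ± 98.3 CPM (edgeR adjusted p = 0.928). The 3 higher were Tek, Fgd5 and Mecom, named after their values were seen. Summed CPM of other cells' markers did not overlap between the ages for 9 erythroid genes (584 to 922 at P5, 94.6 to 138 at 4 weeks, nearly all Hbb-bt, with Alas2 at 0), 9 B cell genes (34.4 to 52.2 and 20.9 to 26.6, with Ms4a1 and Pax5 at 0) and 10 myeloid genes (238 to 475 and 187 to 221, with Ctsg and Ly6g at 0). The sums overlapped for 9 T and NK genes (30.4 to 48.6 and 27.7 to 42.6, with Cd3e, Cd3g and Ncr1 at 0), 8 dendritic cell genes (315 to 411 and 303 to 356), 7 megakaryocyte genes (293 to 404 and 319 to 420) and 9 endothelial and stromal genes (172 to 231 and 140 to 201). Single markers moved within these sums and were named after their values were seen. Cdh5, of endothelial cells, had 5.73 to 19.4 CPM at P5, highest in replicate 2, and at most 0.168 at 4 weeks (edgeR adjusted p = 1.71e-05). Csf1r, of the myeloid list, had 158 CPM in P5 replicate 2 and 3.45 to 7.92 elsewhere. The neutrophil genes S100a8, S100a9 and Elane of that list had no read at P5 and at most 3.74 CPM at 4 weeks. S100a8 was called lower at P5 (edgeR adjusted p = 0.000699). Of the 6 tested genes of that list, edgeR called 3 higher at P5 and 1 lower, and DESeq2 and limma-voom each called 2 higher and 1 lower. Itgam (59.9 CPM at P5 and 13.1 at 4 weeks, edgeR adjusted p = 1.44e-05) was higher, as were Mpo (5.62 and 1.46, edgeR adjusted p = 0.011) and Csf1r. The part of other cells in the results below was not tested. In such bulk samples, fewer cells of a type and less RNA per cell cannot be told apart.

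Exon reads of 9 genes were compared between P5 and 4 weeks to ask whether the interferon signalling chain of HSCs differed in the newborn period. Of the 9, 1 was lower at P5 and 0 were higher by edgeR's quasi-likelihood test with Benjamini-Hochberg adjustment over 12235 genes (threshold 0.05), and 3 had an unadjusted p under 0.05. Over all genes tested, 16.5% were called, 7.99% as higher and 8.55% as lower at P5, and 29.9% had an unadjusted p under 0.05, so 1 of 9 is near the background. DESeq2 and limma-voom also called Stat2 alone. The median log2 fold change of the 9 genes was 0.0019, and that of all genes -0.0042. The P5 and 4-week libraries did not overlap for 2 of the 9, Stat2 and Tyk2, both lower at P5, while 11.2% of all genes were lower without overlap and 21.2% were separated in either direction.

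**Figure D1:**
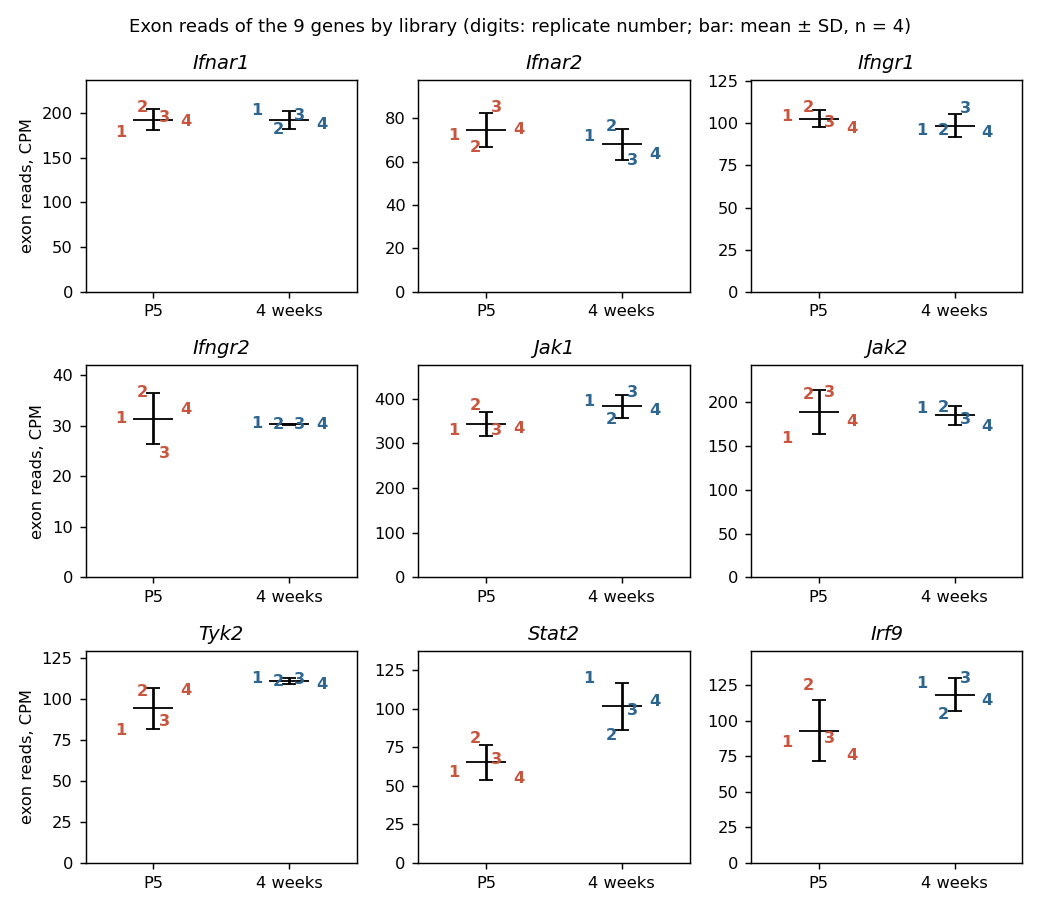
Exon reads in CPM (vertical axes, from 0) of each gene at P5 and 4 weeks, with digits for the replicate number and bars for the mean ± SD (n = 4 each). Stat2 and Tyk2 have all P5 libraries below all 4-week libraries, and P5 replicate 2 stands at the 4-week level for Irf9.

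Stat2 (chromosome 10, 128270498 to 128292853, positions from RefSeq on GRCm38.p6 here and below) encodes the STAT that is specific to interferon signalling and carries the activation domain of ISGF3. Its P5 libraries had 58.3, 80.4, 67.2 and 54.8 CPM in the order of replicates 1 to 4, and its 4-week libraries 119, 82.7, 98.4 and 105. P5 replicate 2 and 4-week replicate 2 nearly met, and no P5 library reached a 4-week one. The means were 65.2 ± 11.4 and 101 ± 15.2 (SD, n = 4 each), a 1.56-fold lower level at P5 (log2 fold change -0.64, SE 0.135, 95% interval -0.93 to -0.35, edgeR adjusted p = 0.00533). Reads across exon junctions, which come from spliced RNA, were separated too, at 22.6 ± 4.69 CPM in P5 and 35.7 ± 1.36 in 4-week libraries (SD, n = 4 each). In the authors' deposited table, Stat2 was likewise the gene of the 9 with the smallest corrected p-value, 0.00267. The next was Irf9 at 0.385, and these values come from the authors' own test. When P5 replicates 1 and 3 were set aside, Stat2 had a log2 fold change of -0.59 and lost its call (edgeR adjusted p = 0.0584). With Y-linked reads as a covariate the value was the same to 2 decimals and the call was kept (edgeR adjusted p = 0.0479). As only P5 replicates 1 and 3 lack those reads, both fits estimate age from the same libraries, and the like values are not a second check.

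Irf9 (chromosome 14, 55603985 to 55610030) encodes the DNA-binding subunit of ISGF3. It had 84.5, 125, 87.8 and 76.0 CPM in P5 replicates 1 to 4 and 126, 104, 130 and 114 in 4-week replicates 1 to 4. The groups overlapped through P5 replicate 2 alone, which lay within the 4-week range. The means were 93.2 ± 21.5 and 119 ± 11.6 (SD, n = 4 each), with a log2 fold change of -0.35 (SE 0.136, 95% interval -0.64 to -0.05, edgeR adjusted p = 0.103), so Irf9 was not called. Its unadjusted edgeR p was 0.0236. Without P5 replicate 2 the log2 fold change was -0.52 and Irf9 was called lower (edgeR adjusted p = 0.00324). RefSeq starts Irf9 after the end of its neighbour Rnf31, but in the GENCODE annotation they share 123 bases on the same strand, and reads there could belong to either.

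Ratios of genes within a library were compared because library scaling cancels in them. There were 1.42 Irf9 reads per Stat2 read at P5 and 1.18 at 4 weeks, a log2 difference of 0.27 (two-sided exact permutation p = 0.0571, adjusted p = 0.257 over 6 ratios). Its ranges overlapped between the ages. With 70 splits the smallest p is 0.0286.

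P5 replicate 2 was the highest P5 library for 6 of the 9 genes, including Stat2, Irf9, Jak1 and 3 receptor chains. The share of all genes highest in that library was not computed, so the count is not read as a trait of the 9 genes. In that library Irf9 stood at 1.05 of the 4-week mean, against 0.641 to 0.740 in the other P5 libraries. Stat2 stood at 0.793 there, against 0.541 to 0.663. The largest part of the summed CPM of the ISGF3 target genes described below was Rnf213. That sum was 0.828 of the 4-week mean in this library and 0.645 to 0.693 in the others. This is the library with 158 CPM of Csf1r and the most Cdh5, and the part of other cells in its values was not tested.

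**Figure D2:**
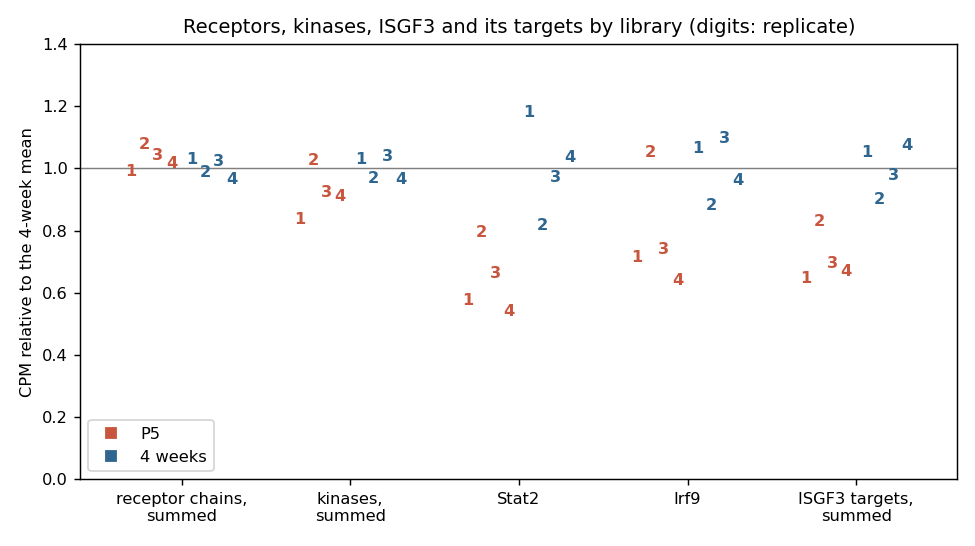
CPM of receptor chains (4 genes summed), kinases (3 genes summed), Stat2, Irf9 and ISGF3 target genes (41 summed), relative to the 4-week mean (vertical axis), with digits for the replicate. The largest parts of these sums are Ifnar1, Jak1 and Rnf213 in turn. Receptor chains lie between 0.963 and 1.08 in all 8 libraries, while Stat2 and the summed targets have all P5 libraries below all 4-week libraries.

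The kinases came next in the chain and none was called, with 1 of 3 at an unadjusted p under 0.05. DESeq2 and limma-voom called 0 of them. Tyk2 (chromosome 9, 21104068 to 21131393), the kinase bound to IFNAR1, had 81.0, 105, 86.5 and 105 CPM in P5 replicates 1 to 4 and 112, 111, 112 and 109 in 4-week replicates 1 to 4. All P5 libraries were below all 4-week libraries, and the 4-week values lay close together. The means were 94.3 ± 12.4 and 111 ± 1.75 (SD, n = 4 each), with a log2 fold change of -0.24 (SE 0.0963, 95% interval -0.44 to -0.03, edgeR adjusted p = 0.119). Its unadjusted edgeR p was 0.0294. P5 replicates 2 and 4, the ones with Y-linked reads, were the nearest to 4 weeks, and with those reads as a covariate the log2 fold change was -0.08 (edgeR adjusted p = 0.674). Reads of the antisense gene 1700084C06Rik, annotated over 24326 bases of Tyk2, cannot be told apart from those of Tyk2, since no use of strand is stated.

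Jak1 (chromosome 4, 101151974 to 101265282), the kinase shared by both receptors, had 328, 383, 328 and 333 CPM in P5 replicates 1 to 4 and 393, 352, 412 and 374 in 4-week replicates 1 to 4. The ages overlapped through P5 replicate 2. The means were 343 ± 26.8 and 383 ± 25.8 (SD, n = 4 each), with a log2 fold change of -0.16 (SE 0.0792, 95% interval -0.33 to 0.01, edgeR adjusted p = 0.203). Jak2 (chromosome 19, 29251803 to 29313095), which serves the interferon gamma receptor and the thrombopoietin receptor, ranged from 159 to 211 CPM at P5 and from 173 to 194 at 4 weeks. Its log2 fold change was 0.03 (SE 0.0951, 95% interval -0.17 to 0.24, edgeR adjusted p = 0.865). The 4-week range of Jak2 lay inside that of P5. Jak2 had 0.549 reads per Jak1 read at P5 and 0.484 at 4 weeks (log2 difference 0.18, exact permutation p = 0.20, adjusted p = 0.40). Tyk2 had 0.274 and 0.290 reads per Jak1 read (log2 difference -0.09, exact permutation p = 0.429, adjusted p = 0.514).

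Of the 4 receptor chains, edgeR, DESeq2 and limma-voom called 0, with 0 at an unadjusted p under 0.05 in edgeR. Ifnar1 (chromosome 16, 91485032 to 91510523), the chain that binds TYK2, had 178, 206, 195 and 190 CPM in P5 replicates 1 to 4 and 203, 181, 197 and 187 in 4-week replicates 1 to 4. The means were 192 ± 11.7 and 192 ± 9.92 (SD, n = 4 each), with a log2 fold change of 0.0019 (SE 0.0746, 95% interval -0.16 to 0.16, edgeR adjusted p = 0.992). The interval covers a level from 1.12-fold lower to about as much higher at P5. Ifnar2 (chromosome 16, 91372783 to 91405589), the high-affinity chain that binds JAK1, had 71.8, 66.4, 85.0 and 74.7 CPM at P5 and 71.4, 76.3, 60.6 and 63.3 at 4 weeks. The groups overlapped, with means of 74.5 ± 7.82 and 67.9 ± 7.27 (SD, n = 4 each) and a log2 fold change of 0.13 (SE 0.108, 95% interval -0.10 to 0.37, edgeR adjusted p = 0.447). The gene model Gm21970 is annotated over 13869 bases of Ifnar2 on the same strand, so reads there could belong to either. Ifnar2 had 0.387 reads per Ifnar1 read at P5 and 0.353 at 4 weeks (log2 difference 0.13, exact permutation p = 0.371, adjusted p = 0.514).

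Ifngr1 (chromosome 10, 19591949 to 19610229), the ligand-binding chain of the interferon gamma receptor, had 104, 109, 101 and 97.0 CPM in P5 replicates 1 to 4 and 95.4, 96.0, 109 and 94.3 in 4-week replicates 1 to 4. In each age a single library near 109 CPM stood highest. The log2 fold change was 0.06 (SE 0.0826, 95% interval -0.12 to 0.24, edgeR adjusted p = 0.685). Ifngr2 (chromosome 16, 91547059 to 91564007), the signalling chain that binds JAK2, had 31.5, 36.5, 24.6 and 33.3 CPM at P5 and 30.5, 30.3, 30.3 and 30.2 at 4 weeks. Its P5 libraries lay on both sides of the 4-week ones (log2 fold change 0.05, SE 0.134, 95% interval -0.24 to 0.34, edgeR adjusted p = 0.832). Ifngr2 had 0.304 reads per Ifngr1 read at P5 and 0.308 at 4 weeks (log2 difference -0.02, exact permutation p = 0.857, adjusted p = 0.857).

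**Figure D3:**
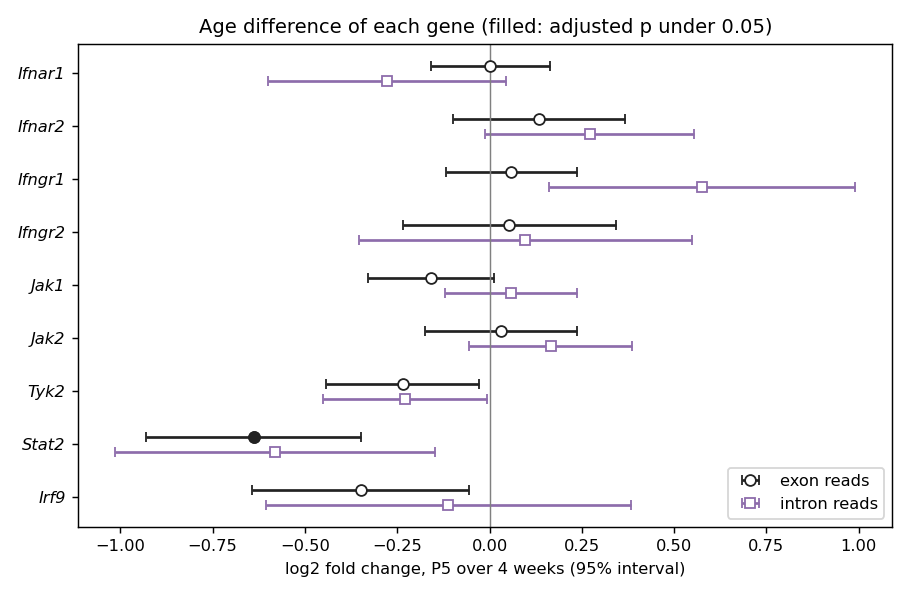
Log2 fold change of P5 over 4 weeks (horizontal axis) with its 95% interval for each gene, from exon reads (circles) and intron reads (squares), filled where the adjusted p is under 0.05. Stat2 from exon reads is the only filled point, the exon intervals of the 4 receptor chains all cross 0, and Ifngr1 has the highest intron value, at 0.58.

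Intron reads, which come from unspliced RNA or other RNA of the locus, gave a separate reading of the same genes. None of the 9 was called with them by edgeR, while 17.9% of 13180 genes were called. An unadjusted p under 0.05 was found for 3 (Ifngr1, Stat2 and Tyk2). For intron reads, the shares of all genes under that p or without overlap between the ages were not computed. With exon reads these shares were 29.9% and 21.2%. Stat2 kept the size of its difference in intron reads, with a log2 fold change of -0.58 (SE 0.199, edgeR adjusted p = 0.0625), and its ages did not overlap. Its intron reads ranged from 16.2 to 31.6 CPM at P5 and from 32.2 to 41.6 at 4 weeks. Tyk2 also had no overlap, with a log2 fold change of -0.23 (edgeR adjusted p = 0.144). Irf9 overlapped, with a log2 fold change of -0.11 (SE 0.227, 95% interval -0.60 to 0.38, edgeR adjusted p = 0.773). Ifngr1 had 54.7, 96.2, 51.0 and 53.6 intron CPM in P5 replicates 1 to 4 and 44.4, 39.4, 44.3 and 43.3 at 4 weeks. Every P5 library was above every 4-week library, and P5 replicate 2 was far above the rest (log2 fold change 0.58, SE 0.190, edgeR adjusted p = 0.0558). Without that library, an alternative chosen after seeing the data, the log2 fold change was 0.31 (edgeR adjusted p = 0.103). Ifnar1 leaned the other way in intron reads, with a log2 fold change of -0.28 (95% interval -0.60 to 0.04, edgeR adjusted p = 0.217). The share of gene reads that lay in introns differed widely among the genes, from 17.3% ± 2.80 for Irf9 to 71.9% ± 1.95 for Jak1 at 4 weeks (SD, n = 4 each).

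Levels of different genes can be compared only per length, here as CPM per kb of exon. Jak1 was the highest in all 8 libraries, with 61.7 ± 4.83 at P5 and 68.9 ± 4.64 at 4 weeks, and its range met that of no other of the 9 genes. Ifngr1 followed at 48.95 ± 2.51 and 47.0 ± 3.26, then Irf9 at 34.7 ± 8.01 and 44.1 ± 4.32 (SD, n = 4 each). Ifngr1 exceeded Irf9 in 7 libraries, and the exception lay at 4 weeks. Ifnar1, Jak2, Tyk2, Ifnar2, Stat2 and Ifngr2 had means over all libraries from 27.4 down to 14.9, and in this order the ranges of neighbours overlapped. Ifnar2 exceeded Stat2 in 4 of 8 libraries. Stat2 had 14.5 ± 2.53 at P5, below the mean of every other of the 9 genes, and 22.5 ± 3.38 at 4 weeks (SD, n = 4 each). Within each receptor the 2 chains had unequal levels per length, with Ifnar1 above Ifnar2 (27.4 and 19.9 at P5) and Ifngr1 above Ifngr2 (48.95 and 15.2 at P5).

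**Figure D4:**
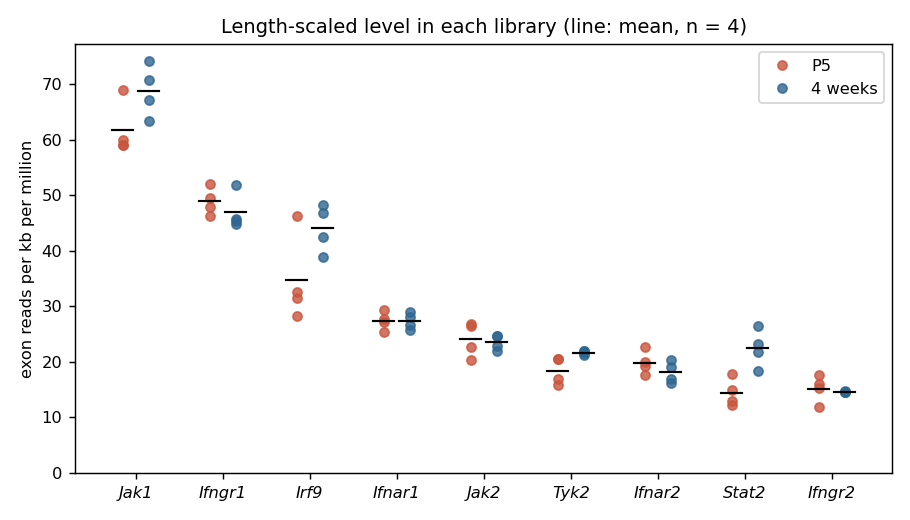
Exon CPM per kb of exon (vertical axis, from 0) of each gene in each library, with points for libraries and lines for the mean of each age (n = 4). Jak1 lies above all others, between 59.04 and 74.2, and Stat2 and Ifngr2 have the lowest P5 means, at 14.5 and 15.2.

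The ligands and the type III receptor framed these genes. Of 21 interferon genes, 12 had no read in any library, and all 21 together had 60 reads in 8 libraries, too few for any to be tested. Il10rb, a receptor chain of type III interferon and interleukin 10 that lies between Ifnar2 and Ifnar1 on chromosome 16, averaged 23.6 ± 0.871 CPM in P5 and 28.7 ± 3.94 in 4-week libraries (SD, n = 4 each; log2 fold change -0.28, edgeR adjusted p = 0.184). Its specific partner Ifnlr1 had 2 reads in all. Of 6 other JAK and STAT genes compared, 1 was lower at P5 and 0 higher by edgeR, DESeq2 and limma-voom alike. The same 1 had an unadjusted edgeR p under 0.05. With 16.5% of all genes called by edgeR, 1 of 6 is near the background. The gene was Stat5a, a STAT of thrombopoietin and related cytokines, which was 1.22-fold lower (edgeR adjusted p = 0.0201). Leaving out P5 replicate 3 or 4 or 4-week replicate 1 or 4 left 0 calls. Stat3, the most abundant, had 297 ± 8.01 and 298 ± 29.9 CPM (SD, n = 4 each; edgeR adjusted p = 0.976).

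Among 21 negative regulators, 4 were lower and 2 higher at P5 by edgeR, with a median log2 fold change of -0.0084. Of all genes tested, 8.55% were lower and 7.99% higher, so the 2 higher are near the background. Usp18, the ISG15 protease that binds IFNAR2 and blocks type I signalling, was 2.02-fold lower (12.2 ± 3.66 CPM in P5 and 24.6 ± 3.11 in 4-week libraries, SD, n = 4 each, edgeR adjusted p = 0.0043). The STAT5 feedback genes Cish and Socs2 were 3.22-fold and 2.86-fold lower. The other gene lower was Ptpn11, a phosphatase named after its values were seen, at 1.19-fold. Sh2b3, an adaptor that restrains JAK2, was 1.25-fold higher, and Btrc, a ubiquitin ligase subunit for IFNAR1, 1.31-fold higher. Without P5 replicate 2 or 4, or 4-week replicate 1, 3 or 4, only 1 of the 2 was called higher. The phosphatase Ptprc was the most abundant, at 348 ± 13.5 and 321 ± 31.1 CPM (SD, n = 4 each; edgeR adjusted p = 0.362). Of 12 coactivators and adaptors of the ISGF3 step, 2 were higher and 0 lower at P5 (edgeR, DESeq2 and limma-voom alike, with 2 at an unadjusted p under 0.05). As 16.5% of all genes were called in either direction and 29.9% had an unadjusted p under 0.05, 2 of 12 is not above the background. The 2 were the arginine methyltransferase Prmt1 (1.33-fold, edgeR adjusted p = 0.0112) and Irf2, a repressor that competes at ISRE sites (1.2-fold, edgeR adjusted p = 0.0175). With Y-linked reads as a covariate 0 were called, without P5 replicate 3 or 4-week replicate 4 only 1 was, and without P5 replicate 2 there were 3. Rack1 (Gnb2l1 in the files), the most abundant, had 1169 ± 165 and 1035 ± 72.3 CPM (SD, n = 4 each; edgeR adjusted p = 0.251).

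Downstream, of 40 tested ISGF3 target genes, 29 were lower at P5 and 0 higher by edgeR, with a median log2 fold change of -0.50. For all genes tested, 8.55% were lower and 7.99% higher, and the median was -0.0042. DESeq2 called 29 lower and limma-voom 28, neither called any higher, and 35 had an unadjusted p under 0.05. Zbp1, Oas3 and Ifitm3 had log2 fold changes of -3.38, -1.17 and -0.77, and Rnf213, the most abundant, was 1.37-fold lower (edgeR adjusted p = 0.0090). With Y-linked reads as a covariate 13 were lower, and leaving out single libraries gave 20 to 33. Of 26 tested GAS-type targets of interferon gamma, 19 were lower and 2 higher, with a median log2 fold change of -0.80. Beside the same shares of all genes, the 2 higher are near the background. Nlrc5, Iigp1 and Gbp8 had log2 fold changes of -1.37, -1.95 and -1.59, and Gbp7, the most abundant, -0.76. The 2 higher genes were Irf8, a transcription factor of myeloid and B cells (2.29-fold), and Fcgr1, a macrophage Fc receptor (2.55-fold, edgeR adjusted p = 0.0498). Only 1 of these 2 was called without any of P5 replicates 2, 3 and 4 or 4-week replicates 1, 3 and 4. The myeloid marker sum given above was likewise higher at P5, with the top of its range in P5 replicate 2. Its largest part was Lyz2, at 172 CPM in P5 and 158 in 4-week libraries (edgeR adjusted p = 0.363). Of its single genes, edgeR called Itgam, Mpo and Csf1r higher at P5 and S100a8 lower. The ages overlapped for Csf1r, which had 158 CPM in P5 replicate 2 and 3.45 to 7.92 elsewhere. DESeq2 and limma-voom each called 2 genes of the list higher. The part of myeloid cells in the Irf8 and Fcgr1 values was not tested.

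**Figure D5:**
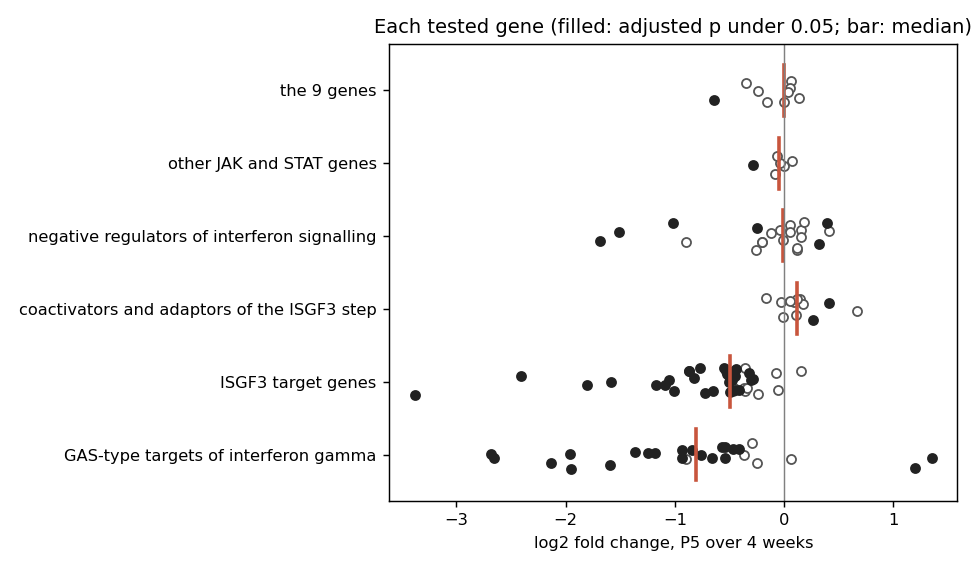
Log2 fold change of P5 over 4 weeks (horizontal axis) of each tested gene, by group, filled where the adjusted p is under 0.05, with a bar at the median. The median of the 9 genes is at 0.0019, that of ISGF3 targets at -0.50 and that of GAS-type targets at -0.80.

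The genes whose levels followed Stat2 most closely over the 8 libraries, by Pearson's r of log2(CPM + 1), were Slfn5 (0.992), Exoc6b (0.986), Itpr2 (0.986), Gm5431 (0.985) and Tfr2 (0.983). All 5 were lower at P5 by edgeR, as was Stat2, and the age difference itself enters such correlations. Irf9 ranked 227th in likeness to Stat2, with r = 0.896. The genes most like Irf9 were Amotl2 (0.974), Gaa (0.969), 2510009E07Rik (0.966), Oas1a (0.964) and Terf2 (0.963), and none of these was called between the ages. Oas1a, an antiviral oligoadenylate synthetase, averaged 65.3 ± 16.9 CPM in P5 and 84.3 ± 9.86 in 4-week libraries (SD, n = 4 each).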

How the data were processed

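Per the labels' protocols, cDNA of 100 sorted cells was made into libraries with a Nextera XT kit. The authors deposited raw counts of exon, intron, junction and gene reads for each of 48835 gene rows, their RPKM (not used for tests) and, in 1 file, the p-value and corrected p-value of their own test. Per the file headers the reads were trimmed. Per the submitters' processing notes the genome was mm10. Aligner, counter and strand setting: not given in the sources used here. Total exon reads of the 23457 rows with an mRNA model were used. Numbered copies of 969 genes were summed, and 24 identifiers that differed between the tables (names turned into dates) were joined by their identical positions and exon lengths. The 9 genes have single rows.

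Genes were fitted over 8 libraries with edgeR 4.0.16 in R 4.3.3 (TMM, filterByExpr, quasi-likelihood, age alone), and adjusted p-values cover the 12235 genes kept. Standard errors come from the F statistic, and 95% intervals from its degrees of freedom. Ratios used reads plus 0.5 and two-sided exact permutation over 70 splits. DESeq2 1.42.0 and limma 3.58.1 were alternatives. The fit was tested on simulated data. Libraries of one age differed by more than sampling noise (lowest chi-square per degree of freedom 4.38). Python 3.11.15, pandas 2.3.3, scipy 1.17.1 and matplotlib 3.10.9 were used.

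All 9 genes were named, in every library. From each pathway list the rule named up to 3 called members of smallest p in each direction, or the member of smallest p where none was called, and the most abundant member, then the gate genes and the 5 genes most correlated with Stat2 and with Irf9. The genes, lists and alternatives were chosen with earlier results of these data known. A planned comparison of JAK proteins was not run, and protein sequences were not used here. One gene of the pathway, and the ratio and levels that need it, are not reported here; the adjustment over 6 ratios includes that ratio.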

Additional observations from a re-analysis of the deposited data

Results flagged for a closer look

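Exon CPM, intron CPM and intron share of the 9 genes, and 6 ratios, gave 66 sets of 4 libraries that were checked for a library far from the other 3, and chance flags about 1 in 20 such sets. There were 4 cases. Jak1 had 383 exon CPM in P5 replicate 2, above 328 to 333 in the other P5 libraries. Ifngr1 had 109 exon CPM in 4-week replicate 3 (108.9 before rounding), above 94.3 to 96.0 in the others. Its intron reads were at 96.2 CPM in P5 replicate 2, above 51.0 to 54.7 in the other P5 libraries. The log2 ratio of Ifngr2 to Ifngr1 was -1.84 in 4-week replicate 3, below the other 4-week values.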

How the results depend on the processing

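Each of the 9 genes was recomputed under 22 alternatives. Stat2 kept its direction in all of them, from -0.75 to -0.55 on the log2 scale, and lost its call with intron reads (-0.58, adjusted p = 0.0625) and without both P5 libraries that lack Y-linked reads (-0.59, adjusted p = 0.0584), where 0 of the 9 genes were lower. Leaving out single libraries gave Stat2 values of -0.75 to -0.55, with edgeR adjusted p from 0.00119 to 0.0219, and Irf9 values of -0.52 to -0.26, with 1 to 2 of the 9 genes lower. Irf9 was at -0.11 with intron reads (edgeR adjusted p = 0.773). The other 7 genes were called under none of the alternatives. Values near 0 changed sign. Ifnar1 was at -0.0060 with library totals without TMM, -0.039 with exon plus intron reads and -0.28 with intron reads, and from -0.033 to 0.038 without single libraries. Jak1 was at 0.059 with intron reads. Without single libraries, Ifngr2 ranged from -0.024 to 0.15, Jak2 from -0.024 to 0.11, and the Ifngr2/Ifngr1 ratio difference from -0.081 to 0.083.

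Replicate numbers did not pair the libraries, since same-numbered libraries had correlations of deviations from -0.236 to -0.031. With the replicate block, 577 genes were higher in place of 977 and Stat2 kept its call (adjusted p = 0.0363). With Y-linked reads as a covariate 628 genes were higher and 608 lower in place of 1046, and with only the libraries that had such reads 619 and 638. Depth limits Ifngr2 most, with 152 to 236 exon reads in a library.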
